A study of Mus musculus with 12 samples.

Results

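The effect of a Dpy30 knockout (KO) was compared between the 2 neurogenic niches of the mouse brain, gene by gene. The measure was a difference of effects: the KO effect in the subventricular zone (SVZ), minus the KO effect in the dentate gyrus (DG), each effect being the mean log2(FPKM + 1) of KO minus that of control. FPKM, fragments per kilobase of transcript per unit of mapped fragments, is a level scaled for length and depth. A positive difference means that the gene stood higher, relative to control, in KO SVZ than in KO DG. Genes entered with a mean of at least 0.5 FPKM in each niche's table, which held for 14913 of 17972 gene names. Of the rest, 528 reached that level in the DG table alone, 235 in the SVZ table alone and 2296 in neither. Lin9, at 0.50009 FPKM, lay just inside the limit, and Fam175a, at 0.49951 FPKM, just outside.

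Bulk RNA sequencing covered 12 libraries in 4 groups of 3, from tissue that held stem and progenitor cells of the niche and neighbouring cells. Control mice were hGFAP/+;Dpy30F/+ and KO mice hGFAP/+;Dpy30F/-, so both carried hGFAP and an F allele, and they differed in whether the other Dpy30 allele was + or -. The labels give no age, and they do not say whether the libraries of a group came from separate animals, so p-values measure the spread between libraries, which may be technical. Libraries are lettered a to c in column order within a group, and a letter pairs nothing between groups.

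Dpy30 is a small shared subunit of the SET1/MLL complexes, the enzymes that methylate histone H3 at lysine 4, a mark of active promoters. It is known to promote the higher methylation states of that residue. The DG and the SVZ are the regions of the postnatal rodent brain in which radial glia-like stem cells go on producing neurons: granule neurons in the DG, and migrating neuroblasts bound for the olfactory bulb in the SVZ.

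Dpy30 itself stood lower in every KO DG library than in any DG control. Its level was 8.43, 8.38 and 10.1 FPKM in the DG controls and 6.22, 6.89 and 5.68 FPKM in KO DG, which is 1.43-fold lower in the means. In the SVZ it was 7.73, 8.25 and 9.43 FPKM in controls and 8.83, 5.04 and 4.87 FPKM in KO. KO SVZ library a thus lay within the control range, and the other KO SVZ libraries lay below it. The difference of effects for Dpy30 (chromosome 17, 74299474 to 74323944, minus strand, GRCm38) was 0.03 ± 0.25 (log2, SE; limma adjusted p = 0.967), and -0.21 ± 0.16 without KO SVZ a (limma adjusted p = 0.506). An exact permutation test (both tails) over libraries gave p = 0.1 in the DG, the smallest that 3 against 3 allows, and p = 0.3 in the SVZ. Results are with all 12 libraries unless the sentence names the 11 that remain without KO SVZ a. That library was set aside for its Dpy30 level, so the Dpy30 value without it, -0.67 in the SVZ, is a description and not a test.

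Other libraries also stood apart. Drd2, a dopamine receptor of striatal projection neurons, was 1.36, 17.8 and 1.09 FPKM in the DG controls and 1.49, 6.79 and 17.7 FPKM in KO DG, against 8.12 to 15.1 FPKM in the SVZ. DG control b, KO DG b and KO DG c thus carried a striatal transcript near its SVZ level. The 2 niches were normalized separately, so levels set beside each other between them, here and below, are approximate. Prox1, a defining transcription factor of dentate granule neurons, was 10.7 FPKM in DG control c and 0.963 to 2.30 FPKM in the other DG libraries, the range of the SVZ being 1.27 to 2.14. C1ql2, a granule-neuron marker, reached 3.83 and 3.78 FPKM in KO SVZ b and c. A read was worth less in KO DG than in DG control: 48.5 to 65.9 reads made 1 FPKM over 1 kb in KO DG, 26.7 to 42.1 in DG control, and 34.0 to 50.1 in the SVZ. By Xist and Y-linked genes, 3 of the 12 libraries came from females, namely DG control c, KO DG a and SVZ control a. KO SVZ thus held no library from a female, unlike SVZ control. Levels across genes correlated at Pearson r = 0.969 to 0.993 between libraries of a group. The part of these library differences in the results was not tested. Values without the 3 DG libraries of high Drd2 are given beside several gene groups.

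Across genes the estimated KO effects of the 2 niches correlated at Pearson r = 0.213, and at 0.306 without KO SVZ a. Error in each effect, with a median standard error of 0.13, lowers such a correlation. It thus does not show how far the niches differ. The direct test called few genes different. With all 12 libraries the difference of effects passed a limma adjusted p under 0.05 for 4 genes in the positive direction, 0.0268% of those tested, and for 1 gene in the negative direction, 0.00671%. An unadjusted p under 0.05 was reached by 2380 genes. Leaving out KO SVZ a gave 37 positive calls, 0.248%, and 27 negative ones, 0.181%, and all 5 earlier calls were among these 64. The counts depended on single libraries: no gene was called without KO DG b, without KO DG c, without SVZ control c, without KO SVZ b or without KO SVZ c, 1 without SVZ control a, 2 without SVZ control b, 21 without DG control a and 258 without KO DG a. None was called without the 3 DG libraries of high Drd2, when 903 genes had an unadjusted p under 0.05.

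Within each niche, more genes were called in the DG than in the SVZ with all 12 libraries. In KO DG 178 genes rose, 1.19%, and 103 fell, 0.691%, while in KO SVZ 1 gene rose, 0.00671%, and 0 fell, 0%, although 2251 genes of the SVZ had an unadjusted p under 0.05. Median centring turned the DG split to 85 higher and 110 lower, and quantile normalization to 151 and 143. Without KO SVZ a, whose spread entered the shared error estimate, the DG calls became 844 higher, 5.66%, and 393 lower, 2.64%, and the SVZ calls 782 higher, 5.24%, and 567 lower, 3.8%. Median centring changed that SVZ split to 513 and 750, and quantile normalization to 643 and 645. The DG count was 4 without KO DG b and 11 without KO DG c.

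Groups whose 3 KO libraries all lay on one side of all 3 controls were more common in the DG. All KO libraries lay above control for 3869 genes in the DG, 25.9%, and below for 1189, 7.97%; in the SVZ the counts were 1166, 7.82%, and 1152, 7.72%. Both niches were separated for 667 genes, and these fell almost evenly between shared and opposite directions. In 264 genes, 1.77%, KO was higher in both niches, and in 93, 0.624%, lower in both. In 210 genes, 1.41%, KO was higher in the DG and lower in the SVZ, and in 100, 0.671%, lower in the DG and higher in the SVZ. Median centring gave 210 and 169 for the opposite kinds, and quantile normalization 163 and 142. Leaving out KO SVZ a, which keeps 2 KO libraries to separate in the SVZ, put 2152 of 2607 doubly separated genes, or 82.5%, in a shared direction.

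A call in a single niche did not carry over to a call of the difference. In the fit of 11 libraries, 960 genes were called in the DG alone, and the difference itself was called for 16 of them. Of 1072 genes called in the SVZ alone, the difference was called for 33. Another 277 genes were called in both niches, which is 22.4% of the DG calls and 20.5% of the SVZ calls: 142 rose in both, 120 fell in both and 15 moved in opposite directions. Of the 64 called differences, 54 had effects of opposite sign in the 2 niches, and 15 were called in both niches. Choosing genes by their difference favours opposite signs, so the 54 are no separate result. The median standard error of a difference was 0.18 on the log2 scale, so most genes could not be told apart unless their effects differed by several times that.

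**Figure D1:**
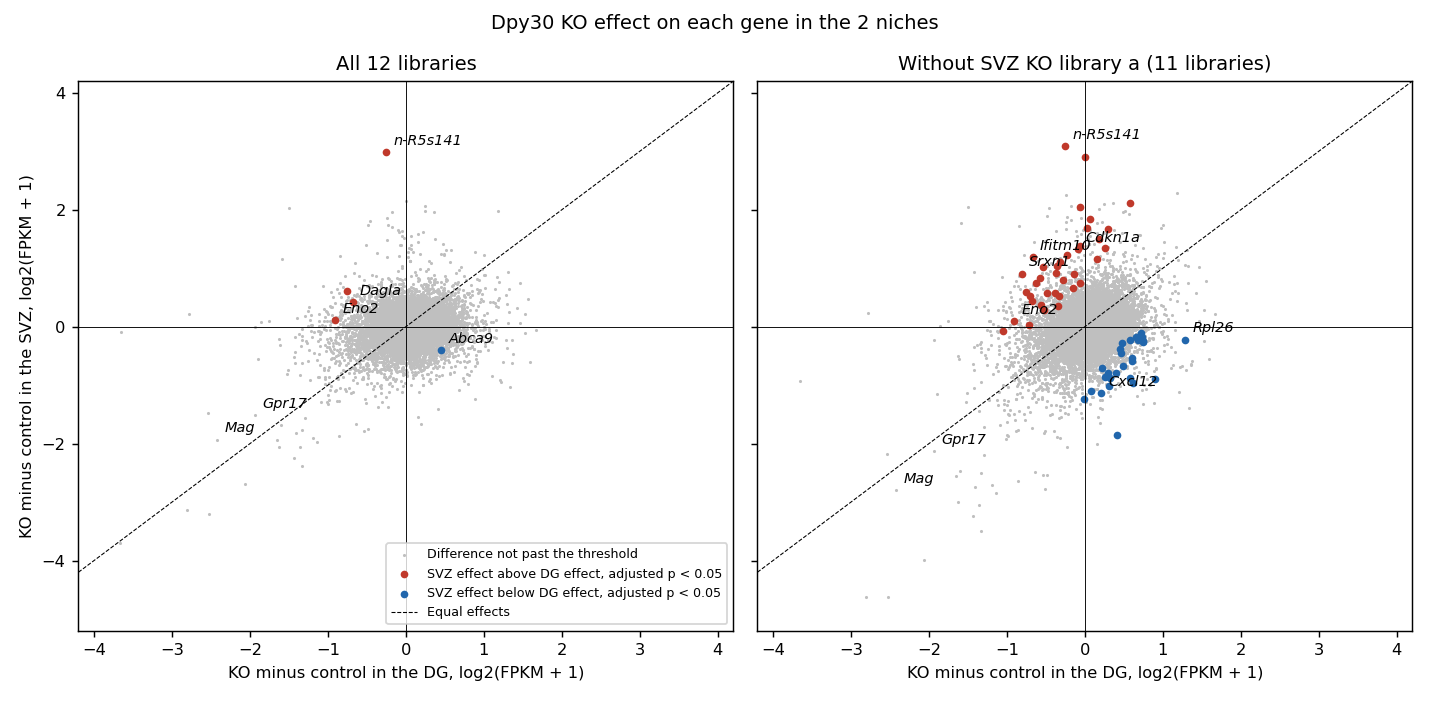
Each point is 1 of 14913 genes, with the KO effect in the DG on the horizontal axis and in the SVZ on the vertical axis, both as KO minus control in log2(FPKM + 1), with all 12 libraries (left) and without KO SVZ a (right). Genes with a called difference (limma adjusted p under 0.05) are red where positive and blue where negative, 5 on the left and 64 on the right, and the dashed line marks equal effects.

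In the scatter of the 2 effects the called genes lie off the line of equal effects, mostly in the quadrants where the signs differ. They were called for that difference, so their place in the plot is no further evidence. Across genes, which are not independent replicates, the effects correlated at Pearson r = 0.213 and Spearman rho = 0.134, and at 0.306 and 0.226 without KO SVZ a. The sign was shared by 57.0% of genes, and by 61.5% without that library. Over all genes the median effect was 0.09 in the DG, 0.03 in the SVZ, and -0.06 for the difference, and 6225 of the 14913 differences were positive. These are the values to which the gene groups below are set.

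Among genes called with all 12 libraries, Eno2, neuron-specific enolase of glycolysis, fell in KO DG and not detectably in KO SVZ. Its level was 179, 183 and 176 FPKM in DG control and 97.0, 91.0 and 97.6 FPKM in KO DG. In the SVZ it was 202, 180 and 204 FPKM in control and 214, 204 and 212 FPKM in KO. All KO DG libraries lay far below control, 1.88-fold in the means, while the KO SVZ libraries lay just above theirs. The difference of effects was 1.01 ± 0.11 (log2, SE; limma adjusted p = 0.0278), from a DG effect of -0.91 and an SVZ effect of 0.11. Eno2 lies on chromosome 6, 124760053 to 124769673, minus strand.

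Dagla, the lipase that makes the endocannabinoid 2-arachidonoylglycerol, had opposite effects. It was 17.5, 19.7 and 23.7 FPKM in DG control against 12.1, 12.4 and 12.1 FPKM in KO DG, and 15.0, 17.0 and 17.5 FPKM in SVZ control against 22.0, 24.0 and 21.5 FPKM in KO SVZ. KO was 1.66-fold lower in the DG and 1.36-fold higher in the SVZ, without overlap in either niche. The difference was 1.11 ± 0.15 (limma adjusted p = 0.0461; chromosome 19, 10245265 to 10304877, minus strand). The SVZ effect alone, 0.43, did not pass its test.

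A further positive call, n-R5s141, is a 5S ribosomal RNA copy. It was 0.362, 0.501 and 0.219 FPKM in SVZ control and 8.33, 8.61 and 12.8 FPKM in KO SVZ, a 27.5-fold rise, while the DG controls spanned 4.81 to 10.5 and KO DG 3.51 to 8.64 FPKM. The SVZ controls were thus the low group, and both DG groups lay near the KO SVZ level, on scales normalized separately. The difference was 3.24 ± 0.41 (limma adjusted p = 0.0400; chromosome 8, 123608320 to 123608438, minus strand). Copies of 5S RNA are nearly identical and lack a poly(A) tail that the library preparation selects for, so the level of a single copy is uncertain. It was the gene that rose in KO SVZ with all 12 libraries (limma adjusted p = 0.00548).

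Abca9, an ABC transporter of the lipid-handling A family, was the sole negative call, and it is named here after its values were seen because its levels were low. It was 1.102, 0.897 and 0.915 FPKM in DG control and 1.56, 1.76 and 1.77 FPKM in KO DG, and 1.58, 1.42 and 1.60 FPKM in SVZ control and 0.858, 0.959 and 0.946 FPKM in KO SVZ. KO was 1.75-fold higher in the DG and 1.67-fold lower in the SVZ. The difference was -0.85 ± 0.12 (limma adjusted p = 0.0461; chromosome 11, 110100749 to 110168196, minus strand), and it missed the threshold with robust variance moderation, with quantile normalization and with a pseudocount of 0.1.

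**Figure D2:**
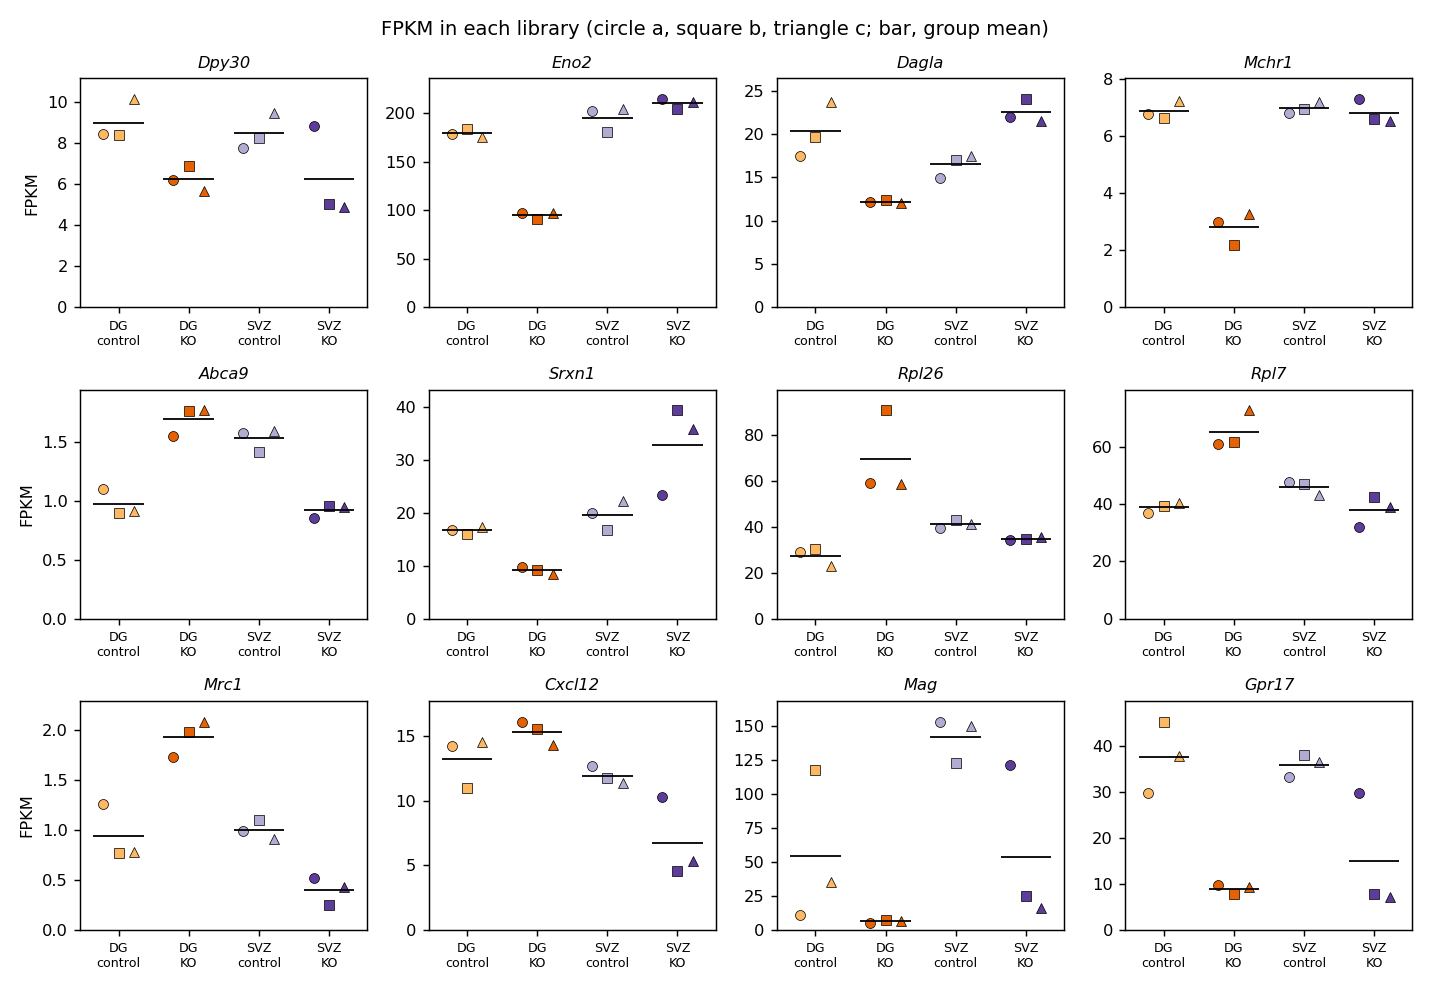
FPKM of 12 genes in each of the 12 libraries (points, linear axis from 0), grouped as DG control, DG KO, SVZ control and SVZ KO, with a bar at the group mean. Eno2 is low only in the 3 KO DG libraries, Mchr1 is low in the same 3 libraries, and Dagla crosses between the niches. Gpr17 is low in KO of both niches except in KO SVZ a. Mag is low in the same KO libraries and also in DG control a, at 11.2 FPKM.

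Other positive differences of small p fell short of the threshold with all 12 libraries. Mchr1, a receptor for melanin-concentrating hormone, fell in KO DG from 6.78, 6.64 and 7.24 to 3.00, 2.20 and 3.29 FPKM, and was 6.81, 6.94 and 7.19 FPKM in SVZ control and 7.29, 6.61 and 6.52 FPKM in KO SVZ. The DG groups were apart and the SVZ groups overlapped, with a difference of 1.02 ± 0.16 (limma adjusted p = 0.0502; 0.0402 without KO SVZ a). Grina, a membrane protein related to glutamate receptor-associated proteins, fell in KO DG from 132, 120 and 129 to 75.4, 76.8 and 79.2 FPKM, with SVZ control at 107, 111 and 125 and KO SVZ at 130, 114 and 117 FPKM. Its difference was 0.79 ± 0.13 (limma adjusted p = 0.0502; 0.0417 without KO SVZ a). Ptprn, a protein of dense-core vesicles, fell 2.04-fold in KO DG, with a difference of 1.20 ± 0.21. Vamp1, a vesicle SNARE protein, fell 1.61-fold in KO DG and was 1.34-fold higher in KO SVZ, with a difference of 1.05 ± 0.18. For both of these genes the limma adjusted p was 0.0644.

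Sulfiredoxin, Srxn1, which restores over-oxidised peroxiredoxins, gave the smallest p once KO SVZ a was left out. It was 16.8, 16.1 and 17.3 FPKM in DG control and 9.71, 9.19 and 8.51 FPKM in KO DG. SVZ control was 19.99, 16.8 and 22.3 FPKM, and KO SVZ 23.3, 39.4 and 35.8 FPKM. KO was lower in the DG and higher in the SVZ without overlap, and KO SVZ a lay closest to its controls. The difference was 1.495 ± 0.23 with all 12 libraries (limma adjusted p = 0.0502) and 1.72 ± 0.15 without KO SVZ a (limma adjusted p = 0.00374).

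Genes with a negative difference and the smallest p included ribosomal protein genes that rose in KO DG. Rpl26, of the large ribosomal subunit, was 29.2, 30.2 and 23.0 FPKM in DG control and 59.0, 90.9 and 58.6 FPKM in KO DG. It was 39.4, 42.9 and 41.4 FPKM in SVZ control and 34.2, 34.8 and 35.7 FPKM in KO SVZ. The rise in KO DG was 2.53-fold, KO SVZ lay below its controls, and the difference was -1.52 ± 0.22 (limma adjusted p = 0.0502; 0.0377 without KO SVZ a). Rpl7 rose 1.68-fold in KO DG, from 36.9, 39.2 and 40.2 to 60.8, 61.7 and 72.6 FPKM, while KO SVZ was 31.9, 42.3 and 38.9 against 47.5, 46.8 and 43.1 FPKM in control. Its difference was -1.01 ± 0.16 (limma adjusted p = 0.0502; 0.0340 without KO SVZ a). Rpl34-ps1, a processed pseudogene, differed by -0.88 ± 0.15, and since such copies share sequence with their parent gene its own level is uncertain.

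Other genes of this negative set had varied roles. Prdx4, a peroxiredoxin of the endoplasmic reticulum and thus a neighbour of Srxn1 in function, rose in KO DG from 6.76, 7.00 and 6.67 to 9.79, 12.9 and 12.2 FPKM. In the SVZ it was 7.52, 7.42 and 7.43 FPKM in control and 6.76, 6.21 and 6.30 FPKM in KO. The difference was -0.87 ± 0.14 (limma adjusted p = 0.0502; 0.0377 without KO SVZ a), opposite in sign to that of Srxn1. Sptssa, a small subunit of serine palmitoyltransferase, the first enzyme of sphingolipid synthesis, rose 1.51-fold in KO DG and differed by -0.84 ± 0.13. Hn1l rose 1.91-fold and differed by -1.001 ± 0.15, AC131120.2 by -0.71 ± 0.12 and Gm10177 by -0.74 ± 0.13. The last pair are annotated as processed pseudogenes, so their own levels are uncertain, as for Rpl34-ps1.

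Leaving out KO SVZ a brought forward genes that changed in the SVZ and not detectably in the DG. Cdkn1a, the cell cycle inhibitor p21, was 10.5, 13.4 and 10.01 FPKM in SVZ control and 7.65, 33.7 and 26.3 FPKM in KO SVZ, against 7.83 to 9.57 in DG control and 7.41 to 9.12 in KO DG. KO SVZ b and c thus stood 2.65-fold above control and KO SVZ a below it. The difference was 1.42 ± 0.20 without KO SVZ a (limma adjusted p = 0.0338) and 0.81 ± 0.54 with it (limma adjusted p = 0.495). Cxcl12, a chemokine that guides neural progenitors, was 12.7, 11.8 and 11.4 FPKM in SVZ control and 10.3, 4.56 and 5.30 FPKM in KO SVZ, with DG control at 10.99 to 14.6 and KO DG at 14.3 to 16.2. Its difference was then -1.33 ± 0.17 (limma adjusted p = 0.0218).

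Further genes were named from the fit of 11 libraries. Ifitm10, Rtn4rl1, a Nogo receptor relative, and Prss23, a secreted serine protease, had differences of 1.86 ± 0.18, 1.57 ± 0.20 and 1.46 ± 0.19. Ifitm10 fell 1.86-fold in KO DG and rose 2.59-fold in KO SVZ b and c. Sccpdh differed by 1.03 ± 0.15, with KO SVZ b and c at 53.4 and 44.6 FPKM against 24.3 to 28.9 in control. On the negative side, Rnase4, a secreted ribonuclease, differed by -1.33 ± 0.21, and Gng11, a G protein gamma subunit, by -1.12 ± 0.17. Gm13370, a processed pseudogene whose own level is uncertain, differed by -1.01 ± 0.15. Rnase4 and Gng11 fell 2.24-fold and 2.1-fold in KO SVZ b and c. All 7 had a limma adjusted p between 0.00374 and 0.0377 in that fit. Over its 37 positive calls KO DG was lower than control in 29 and KO SVZ higher in 36. Over its 27 negative calls KO DG was lower in 1 and KO SVZ higher in 0. Genes were called by the difference, so these directions partly follow from the choice.

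Several of the genes lower in KO of both niches belong to the oligodendrocyte lineage. Gpr17, a receptor of differentiating oligodendrocyte precursors, was 29.8, 45.2 and 37.7 FPKM in DG control and 9.82, 7.79 and 9.26 FPKM in KO DG. It was 33.1, 38.0 and 36.4 FPKM in SVZ control and 29.8, 7.73 and 7.10 FPKM in KO SVZ. All KO libraries lay below the controls of their niche, and KO SVZ a stayed near them. Gpr17 fell 4.19-fold in the DG (limma adjusted p = 0.0384) and, without KO SVZ a, 4.84-fold in the SVZ (limma adjusted p = 0.000341). The difference of effects was 0.43 ± 0.56, and -0.19 ± 0.21 without that library (limma adjusted p = 0.743 and 0.662).

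Mag, myelin-associated glycoprotein, was 11.2, 118 and 34.9 FPKM in DG control and 4.59, 7.32 and 6.30 FPKM in KO DG, and 153, 123 and 150 FPKM in SVZ control and 121, 24.5 and 15.6 FPKM in KO SVZ. The DG controls spread over a 10-fold range, and DG control b, one of the libraries of high Drd2, was highest. Its difference was 0.49 ± 1.09, and -0.37 ± 0.93 without KO SVZ a, so the effects of the niches could differ by a wide margin in either direction. Plxnb3, a semaphorin receptor, and Sema4d, a semaphorin of oligodendrocytes, were 3.35-fold and 2.39-fold lower in KO DG and 2.89-fold and 1.84-fold lower in KO SVZ. In the fit of 11 libraries, each of Mag, Plxnb3 and Sema4d fell in both niches.

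Of the other genes lower in both, S100a13 was 12.0, 14.6 and 13.5 FPKM in DG control and 6.70, 5.39 and 7.04 FPKM in KO DG, and 17.99, 13.3 and 15.3 FPKM in SVZ control and 13, 4.60 and 4.94 FPKM in KO SVZ. Fah, the last enzyme of tyrosine breakdown, was 4.31 to 5.86 FPKM in DG control and 1.66 to 2.97 in KO DG, and 4.07 to 6.44 in SVZ control and 0.688 to 3.90 in KO SVZ. Lix1 was 1.97-fold lower in KO DG and 1.86-fold lower in KO SVZ. In the fit without KO SVZ a, S100a13, Fah and Lix1 fell in both niches, with limma adjusted p between 0.00108 and 0.0278, and the differences of effects, -0.54, -0.91 and -0.36, did not pass.

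Other genes were higher in KO of both niches. Ccdc80, an extracellular matrix protein, was 2.23, 4.77 and 3.03 FPKM in DG control and 8.61, 12.4 and 11.3 FPKM in KO DG, and 2.44, 3.09 and 2.74 FPKM in SVZ control and 3.33, 7.03 and 6.12 FPKM in KO SVZ. It rose 3.22-fold in the DG and, without KO SVZ a, 2.38-fold in the SVZ, with a difference of -0.46 ± 0.30. Adamtsl2, a matrix protein that binds microfibrils, rose 2.53-fold in the DG and was 1.46-fold higher in the SVZ. Ubxn11, Angptl6, a secreted angiopoietin-like protein, Cisd3, a mitochondrial iron-sulfur protein, Akr7a5, an aldo-keto reductase, and Snhg3, a small nucleolar RNA host gene, rose in both niches without KO SVZ a, by 1.42-fold to 1.88-fold in the DG and 1.55-fold to 2.59-fold in the SVZ. Pbx4, a homeodomain protein, was 1.59-fold and 1.52-fold higher and did not pass in either niche. The genes of these 2 groups were picked for separation in both niches, so their shared direction is no test.

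Genes separated in opposite directions were again picked for that pattern. Those higher in KO DG and lower in KO SVZ included matrix genes. Col1a2, a collagen chain, was 7.89, 4.02 and 5.75 FPKM in DG control and 11.1, 10.1 and 13.9 FPKM in KO DG, and 2.53, 4.39 and 3.49 FPKM in SVZ control and 2.31, 1.14 and 2.40 FPKM in KO SVZ. Mgp, matrix Gla protein, was 2.46-fold higher in KO DG, where it rose, and 1.64-fold lower in KO SVZ, with a difference of -1.84 ± 0.35 (limma adjusted p = 0.0736). Nupr1, a stress-induced chromatin-associated protein, differed by -2.12 ± 0.45. Gm15682 and Rpl31-ps9, both processed pseudogenes whose own levels are uncertain, differed by -1.33 ± 0.23 and -1.63 ± 0.46. None of these 5 passed the test of the difference with or without KO SVZ a.

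The converse kind, lower in KO DG and higher in KO SVZ, held Srxn1, described above, Ifitm10, Slc7a4 and Creg2. Slc7a4, of a family of amino acid transporters, was 22.8, 13.8 and 18.7 FPKM in DG control and 13.3, 10.98 and 11.3 FPKM in KO DG, and 15.1, 15.7 and 15.6 FPKM in SVZ control and 17.9, 29.1 and 27.7 FPKM in KO SVZ. Creg2, a secreted glycoprotein of the brain, was 1.59-fold lower in KO DG and 1.53-fold higher in KO SVZ. The differences were 1.41 ± 0.22 for Slc7a4 and 1.38 ± 0.23 for Creg2 without KO SVZ a (limma adjusted p = 0.0377 and 0.0413).

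The next 6 genes were separated in the DG, with an SVZ effect under 0.2 in size with all 12 libraries. Chrd, chordin, a secreted BMP antagonist, fell 3.49-fold in KO DG, from 5.84, 5.34 and 7.75 to 1.701, 1.47 and 2.25 FPKM, and was 3.04, 3.45 and 3.40 FPKM in SVZ control and 4.04, 2.72 and 2.24 FPKM in KO SVZ. The difference was 1.25 ± 0.25 (limma adjusted p = 0.0772). Gpd1, cytosolic glycerol-3-phosphate dehydrogenase, fell 2.67-fold in KO DG with a difference of 1.25 ± 0.34, and Chd9, a chromatin remodeller, was 2.80-fold lower with a difference of 1.54 ± 0.49. Rpl35 rose 3.83-fold in KO DG and differed by -1.40 ± 0.45. Alas2, of erythroid haem synthesis, and Hba-a1, alpha-globin, were 2.64-fold and 2.17-fold higher in KO DG. Hba-a1 was 92.9, 76.5 and 122 FPKM in DG control and 208, 236 and 187 FPKM in KO DG. Not one of the 6 differences passed. With KO SVZ a left out, the SVZ effects of Chd9, Chrd, Alas2 and Hba-a1 were past that limit, at 0.33, -0.31, -0.44 and -0.65, and none was called.

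Of genes separated in the SVZ with a DG effect under 0.2 in size, the 6 of largest difference were short non-coding RNAs, namely the 5S copies n-R5s124, n-R5s107, n-R5s123 and n-R5s110, the RNase MRP component Rmrp, and Gm24265. Rmrp was 0.919, 1.99 and 4.97 FPKM in SVZ control and 6.71, 6.71 and 12.5 FPKM in KO SVZ, and its DG groups overlapped at 5.24 to 11.6 and 3.49 to 10.9 FPKM. KO SVZ was 2.62-fold to 5.47-fold above control for these 6 genes. Their differences of 1.43 to 2.15 carried standard errors of 0.65 to 1.43, and none passed.

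Gene groups were then compared by the median of their effects. Genes of mature neurons and synapses had a negative median in KO DG and one near 0 in KO SVZ. Of 22 tested, 5 fell in the DG and 13 were separated lower, against the 0.691% and 7.97% of all genes. The median effect was -0.50 in the DG, 0.04 in the SVZ and 0.55 for the difference, positive in 20 of 22. Beside Eno2 the group held Nefh, the heavy neurofilament chain, which fell from 6.57, 9.48 and 12.1 to 4.66, 3.58 and 4.28 FPKM in KO DG and was 9.05, 8.84 and 7.72 FPKM in SVZ control and 11.5, 10.7 and 11.4 FPKM in KO SVZ. Its difference was 1.33 ± 0.24 (limma adjusted p = 0.0644). The median difference of this group lay between 0.41 and 0.61 in the 21 alternatives run, and the DG median was -0.30 without the 3 libraries of high Drd2. In bulk tissue, fewer cells of a type and less RNA per cell cannot be told apart.

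Groups of hippocampal and glutamatergic genes also had negative DG medians. For glutamate receptors the medians were -0.33 in the DG and -0.03 in the SVZ over 21 genes, with 3 that fell in the DG, against 0.691% of all genes, and 17 positive differences. Without KO SVZ a the SVZ median was -0.12, and 2 fell in the SVZ, against 3.8% of all genes. Grin1, the obligatory NMDA receptor subunit, fell from 103, 109 and 97.3 to 72.0, 63.2 and 61.4 FPKM in KO DG, and was 85.1, 99.2 and 82.4 FPKM in SVZ control and 97.9, 95.6 and 91.7 FPKM in KO SVZ, a difference of 0.75 ± 0.14 (limma adjusted p = 0.0672). Grm7, a metabotropic receptor, and Grik4, a kainate receptor subunit, differed by 0.58 ± 0.19 and 1.21 ± 0.41. For dentate granule neurons the medians were -0.42 and 0.01 over 16 genes, and the SVZ median was -0.05 without KO SVZ a. The median difference, 0.46, was 0.22 without that library. The summed level of this list was 505 to 718 FPKM in DG control and 525 to 602 in SVZ control. The list was thus not particular to the DG. As the list's mean log2(FPKM + 1) minus that of DG control, DG control b, of high Drd2, was at -0.42. KO DG was at -0.30, -0.56 and -0.65, so these groups overlapped. Slc17a7, the vesicular glutamate transporter VGLUT1, fell from 552, 405 and 511 to 271, 225 and 140.6 FPKM in KO DG and was 385, 462 and 470 FPKM in SVZ control and 595, 539 and 523 FPKM in KO SVZ. Its difference was 1.57 ± 0.30 (limma adjusted p = 0.0736).

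C1ql2, a synaptic protein of granule neuron mossy fibres, was 5.53, 0.356 and 9.88 FPKM in DG control and 1.02, 0.485 and 0.168 FPKM in KO DG. It was 0.226, 0.297 and 0.7498 FPKM in SVZ control and 0.352, 3.83 and 3.78 FPKM in KO SVZ, so the groups overlapped in both niches and its difference of 2.76 ± 0.95 did not pass. Nptx1, a synaptic pentraxin, differed by 2.11 ± 0.52 without passing. For CA pyramidal neurons the medians were -0.45 and 0.08 over 9 genes, 6 with a positive difference and none called. The 3 of smallest p had differences of 1.34 ± 0.51 for Bok, 0.65 ± 0.26 for Ociad2 and 1.93 ± 0.78 for Fibcd1. As the mean log2(FPKM + 1) of the CA list minus that of DG control, DG control b, of high Drd2, was at -0.37. KO DG was at -0.22, -0.49 and -0.45, so these groups overlapped too. For 18 immediate early genes, which neurons induce with activity, the medians were -0.42 and -0.19, and without the 3 libraries of high Drd2 the DG median was 0.20. The median difference, 0.30, turned to -0.43 without those libraries and to -0.06 without KO SVZ a or with array weights. Jun, Egr3 and Bdnf differed by 1.01 ± 0.38, 0.63 ± 0.24 and 1.33 ± 0.54, and none passed.

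GABAergic and striatal neuron genes had medians of 0.39 in the DG, -0.32 in the SVZ and -1.08 for the difference over 21 genes. Against 6413 of all 14913 genes, 18 of the 21 had opposite signs. None was separated or called in the DG, where Drd2 and its like varied within each group, and the DG median was 0.00 without the 3 libraries of high Drd2. The 3 members of smallest p had the other sign. Sst, somatostatin, Gad1, which makes GABA, and Npy, neuropeptide Y, had positive differences of 1.16 ± 0.41, 0.57 ± 0.23 and 0.55 ± 0.25, none past the threshold.

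Ribosomal protein genes shared a direction in KO DG. All 24 had a positive DG effect, 8 rose against 1.19% of all genes, 21 were separated higher against 25.9%, and the medians were 0.62 in the DG and -0.02 in the SVZ. All 24 differences were negative, with a median of -0.57. Among 11 libraries 12 rose in the DG, against 5.66% of all genes, 0 in the SVZ, where 0 also fell, and the difference was called for Rpl7. Rpl19 showed the pattern, at 17.95, 22.2 and 25.1 FPKM in DG control, 38.3, 32.0 and 42.1 FPKM in KO DG, 27.6, 24.0 and 27.0 FPKM in SVZ control and 25.0, 23.7 and 21.7 FPKM in KO SVZ. KO DG lay above DG control, and the SVZ groups overlapped. The summed level of the group was 1491 to 1837 FPKM in DG control, 2187 to 2768 in KO DG, 1318 to 1761 in SVZ control and 1393 to 1605 in KO SVZ. The median difference was -0.71 to -0.42 in the 21 alternatives run, and its DG median 0.41 without the 3 libraries of high Drd2. Ribosomal protein genes have many processed pseudogenes, among which the counting may have split reads.

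Subunits of the respiratory chain had medians of 0.12 and -0.02 over 24 genes. In the DG 1 rose, against 1.19% of all genes, namely Ndufa2 of complex I, by 1.35-fold. Its difference was -0.37 ± 0.13. Atp5h, of ATP synthase, and Uqcrh, of complex III, differed by -0.53 ± 0.15 and -0.42 ± 0.13. None of the 3 passed.

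**Figure D3:**
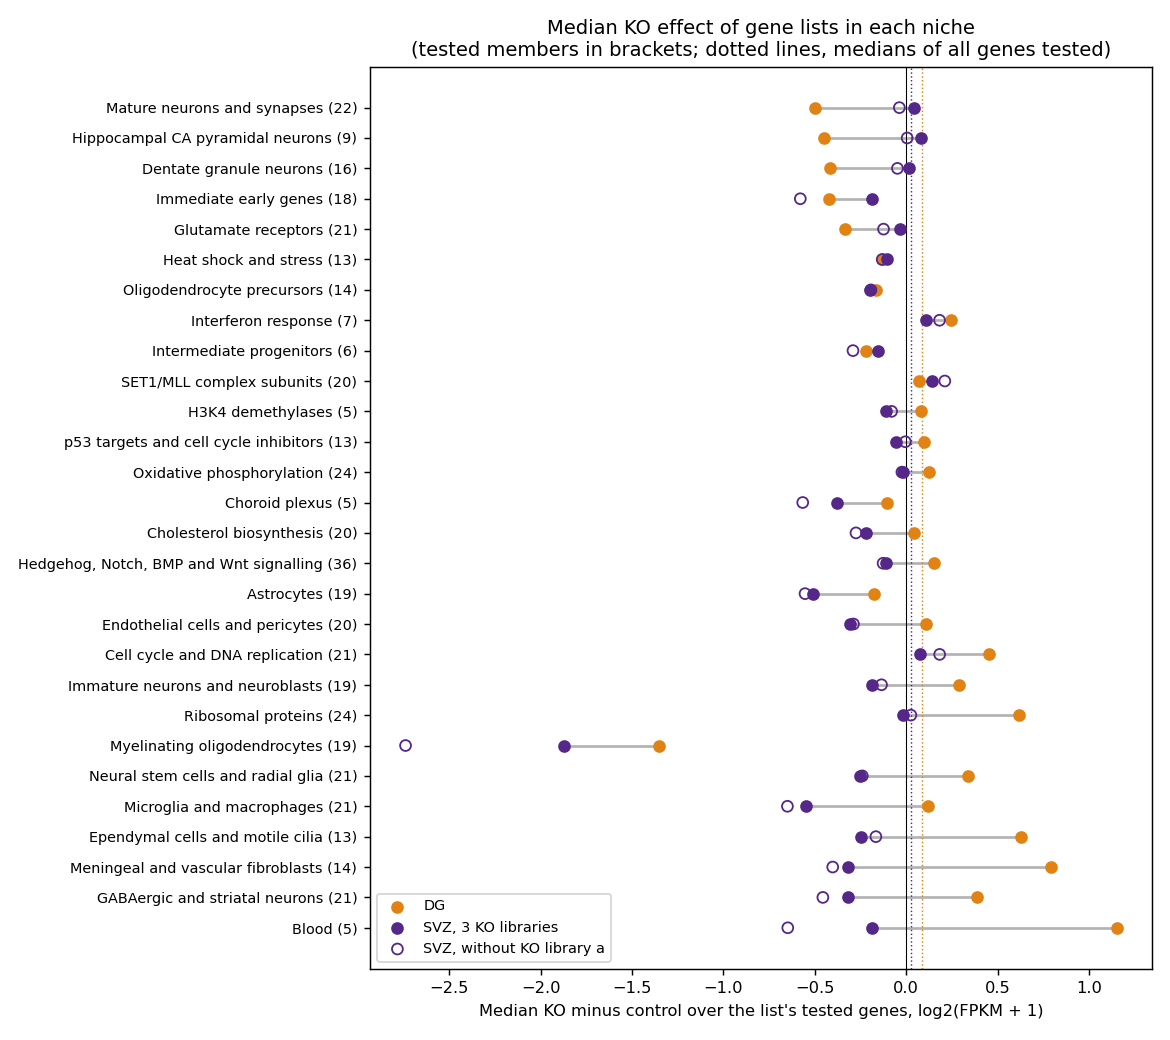
Median KO effect (KO minus control, log2(FPKM + 1)) of the members tested in each gene group, in the DG, in the SVZ with all 3 KO libraries, and in the SVZ without KO SVZ a, joined by a line for each group. Dotted lines mark the medians over all 14913 genes. Ribosomal proteins, fibroblasts, ependymal cells and blood lie to the right in the DG, mature neurons to the left, and myelinating oligodendrocytes far to the left in both niches.

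Genes of stem cells and of dividing cells had positive medians in KO DG. For 21 genes of neural stem cells and radial glia the medians were 0.34 and -0.25, 2 rose in the DG, against 1.19% of all genes, and 20 differences were negative with a median of -0.64. Egfr, a receptor of activated progenitors, rose from 1.58, 1.47 and 1.45 to 2.12, 2.67 and 3.41 FPKM in KO DG, and was 1.64, 1.74 and 1.76 FPKM in SVZ control and 1.24, 1.36 and 1.23 FPKM in KO SVZ. The groups did not overlap in either niche, and the difference was -0.82 ± 0.16 (limma adjusted p = 0.0795). Vim, an intermediate filament of radial glia, was 14.4 to 17.9 FPKM in DG control and 22.5 to 40.3 in KO DG, and Ptprz1, a receptor phosphatase of radial glia, 36.7 to 50.6 and 55.4 to 84.7 FPKM. Their differences were -1.13 ± 0.32 and -0.92 ± 0.26. Without the 3 libraries of high Drd2 the DG median of the group was 0.02.

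Cell cycle and replication genes had positive DG effects in all 21 tested and positive SVZ effects in 17, with medians of 0.45 and 0.07. None was called in either niche with all 12 libraries. In the DG 14 had an unadjusted p under 0.05, against 3595 of all 14913 genes. The replication helicase subunits Mcm2, Mcm3 and Mcm4 were 1.55-fold to 1.75-fold higher in KO DG, and their differences were -0.50 ± 0.20, -0.64 ± 0.27 and -0.54 ± 0.18. The DG median was 0.14 without the 3 libraries of high Drd2, and the median difference, -0.45, became -0.01. Leaving out KO SVZ a gave an SVZ median of 0.18, 19 positive SVZ effects and a median difference of -0.29. Of the 19, 1 was called, against 5.24% of all genes.

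For 19 genes of immature neurons and neuroblasts the medians were 0.29 and -0.19. Stmn1, a microtubule-destabilising protein of growing neurons, was 280, 320 and 316 FPKM in DG control and 350, 398 and 373 FPKM in KO DG, and 255, 333 and 278 FPKM in SVZ control and 234, 149 and 183 FPKM in KO SVZ. The groups were apart in both niches, in opposite directions. Stmn1 fell in the SVZ without KO SVZ a, when its difference was -1.08 ± 0.19 (limma adjusted p = 0.0438). Dlx6os1, a non-coding RNA of the interneuron Dlx locus, was 3.85 to 5.22 FPKM in SVZ control and 1.91 to 2.67 in KO SVZ, with overlapping DG groups, and Sp8, an interneuron transcription factor, differed by -0.86 ± 0.28. The strand of the reads is not stated, so Dlx6os1 cannot be told apart from the Dlx genes it overlaps. The DG median of the group was -0.15, with the sign turned, without the 3 libraries of high Drd2. Of 6 genes of intermediate progenitors the median difference was 0.01, and Elavl2, Gadd45g and Igfbpl1 differed by 0.32 ± 0.24, 0.18 ± 0.25 and -0.10 ± 0.72.

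Several supporting cell types had positive medians in KO DG and negative medians in KO SVZ. Ependymal genes, which serve motile cilia, had medians of 0.63 and -0.25 over 13 genes, and none had a positive difference. Ccdc153 was 0.912 to 2.12 FPKM in DG control and 1.82 to 4.23 in KO DG, and 1.69 to 4.17 in SVZ control and 0.586 to 1.01 in KO SVZ. Its difference was -1.75 ± 0.38, and those of Fam183b and Tekt4, a ciliary tektin, -0.93 ± 0.28 and -0.72 ± 0.25, none past the threshold. Without the 3 libraries of high Drd2 the DG median was 0.10. KO DG b and c, which are among them, also had the highest ependymal Foxj1, at 12.7 and 11.6 FPKM.

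Meningeal and vascular fibroblast genes had medians of 0.79 and -0.32 over 14 genes, all 14 with a positive DG effect. In the DG 1 rose, Mgp, against 1.19% of all genes. Ogn, a small matrix proteoglycan, was 0.729 to 2.93 FPKM in DG control and 3.21 to 4.34 in KO DG, and 0.705 to 1.18 in SVZ control and 0.341 to 0.651 in KO SVZ, a difference of -1.36 ± 0.34 that did not pass. Blood genes had medians of 1.15 and -0.19 over 5 genes. Hbb-bs, a beta-globin, was 338 to 528 FPKM in DG control and 676 to 2079 in KO DG, against 154 to 387 in SVZ control and 135 to 316 in KO SVZ. The summed fibroblast level was 89.5 to 205 FPKM in DG control and 200 to 225 in KO DG, and the summed blood level 779 to 1217 and 1446 to 4125. The part of these cells in the other DG effects was not tested. Without the 3 libraries of high Drd2 the DG medians were 0.45 for fibroblasts and 0.69 for blood. The SVZ median of the blood genes was -0.65 without KO SVZ a.

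Endothelial cell and pericyte genes had medians of 0.11 and -0.31 over 20 genes, with 12 separated lower in KO SVZ, against 7.72% of all genes. The DG median was near the 0.09 of all genes. Signs were opposite in 16, against 6413 of all 14913 genes. Acta2, a smooth muscle actin, was 2.15, 2.59 and 2.72 FPKM in DG control and 3.22, 3.07 and 4.29 FPKM in KO DG, and 2.85, 1.99 and 2.43 FPKM in SVZ control and 0.988, 1.41 and 1.06 FPKM in KO SVZ. Both niches were separated, and the difference was -1.04 ± 0.19 (limma adjusted p = 0.0736). Pdgfrb, a pericyte receptor, and Itm2a differed by -0.63 ± 0.16 and -0.77 ± 0.21. Without the 3 libraries of high Drd2 the DG median was -0.02.

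Microglia and macrophage genes had a negative median in KO SVZ and, in KO DG, one near the 0.09 of all genes. Over 21 genes the medians were 0.12 and -0.55, 13 were separated lower in the SVZ, against 7.72% of all genes, and 20 differences were negative with a median of -0.68. Mrc1, a mannose receptor of border-associated macrophages, was 1.26, 0.772 and 0.777 FPKM in DG control and 1.74, 1.98 and 2.09 FPKM in KO DG, where it rose. It was 0.987, 1.099 and 0.909 FPKM in SVZ control and 0.518, 0.248 and 0.424 FPKM in KO SVZ. The groups were apart in both niches, and the difference was -1.13 ± 0.17 (limma adjusted p = 0.0502; 0.0338 without KO SVZ a). Fcrls, a microglial Fc receptor-like protein, was 6.44 to 11.7 FPKM in DG control and 11.6 to 15.4 in KO DG, and 13.1 to 16.7 in SVZ control and 6.46 to 11.1 in KO SVZ. Its difference was -1.58 ± 0.28 without KO SVZ a (limma adjusted p = 0.0438). Gpr34, a microglial lysophospholipid receptor, differed by -1.23 ± 0.29 and did not pass. Of the 21, 9 fell and 1 rose in the SVZ without KO SVZ a, against 3.8% and 5.24% of all genes, and without the 3 libraries of high Drd2 the DG median was -0.05.

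Astrocyte genes had medians of -0.18 in the DG and -0.51 in the SVZ over 19 genes, and 11 were negative in both. In the DG 7 were separated lower and 2 higher, against 7.97% and 25.9% of all genes, and 1 fell, against 0.691%. In the SVZ 9 were separated lower, against 7.72%. Gja1, connexin 43, was 52.98, 53.1 and 65.6 FPKM in DG control and 61.8, 55.7 and 64.8 FPKM in KO DG, and 74.9, 82.9 and 90.6 FPKM in SVZ control and 57.9, 55.0 and 56.8 FPKM in KO SVZ. The DG groups overlapped and the SVZ groups did not, and the difference was -0.63 ± 0.15 without passing. Aqp4, the astrocyte water channel, differed by -0.80 ± 0.22, and Aldh1l1, a folate enzyme, by -0.60 ± 0.19. Of the 19, 8 fell in the SVZ without KO SVZ a, against 3.8% of all genes, and the median difference, -0.31, was then -0.46.

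Myelinating oligodendrocyte genes had the lowest median of the 28 groups in both niches, with medians of -1.35 in the DG and -1.87 in the SVZ over 19 genes, 17 negative in both. The DG median was -0.78 without DG control b and -0.86 without the 3 libraries of high Drd2. In the DG 15 of 19 were separated lower, against 7.97% of all genes, and 0 were called. Without KO SVZ a the SVZ median was -2.74, 17 fell in the SVZ, against 3.8% of all genes, and 5 in the DG, against 2.64%, and the median difference moved from -0.63 to -1.74. The difference was called for 0 of the 19 in either fit by limma. For all 12 libraries 1 of the 19 lay under 0.05 before adjustment, against 2380 of all 14913 genes. The median difference turned positive, up to 0.083, without DG control a or without KO SVZ c. Aspa, which splits acetylaspartate, was 0.459 to 1.02 FPKM in DG control and 0.752 to 0.898 in KO DG, against 11.5, 3.64 and 6.18 FPKM in SVZ control and 3.73, 1.06 and 0.692 FPKM in KO SVZ. Both DG groups were low and overlapped, and its difference was -1.703 ± 0.54. Ppp1r14a and Cryab, a small heat shock protein, differed by -1.27 ± 0.85 and -0.80 ± 0.56. The summed level of the group was 286 to 2594 FPKM in DG control, 164 to 186 in KO DG, 3241 to 6519 in SVZ control and 264 to 4248 in KO SVZ, and KO SVZ a supplied the highest KO value.

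Oligodendrocyte precursor genes had smaller negative medians, -0.16 and -0.20 over 14 genes. Of the 14, 8 were negative in both niches. In the DG 2 fell and 1 rose, against 0.691% and 1.19% of all genes. Neu4, a sialidase, fell from 3.86, 6.11 and 5.17 to 1.88, 1.8 and 2.24 FPKM in KO DG and had overlapping SVZ groups, with a difference of 0.80 ± 0.24. Vcan, the proteoglycan versican, rose from 2.51, 4.59 and 3.91 to 7.05, 8.03 and 10.2 FPKM in KO DG and differed by -0.98 ± 0.33. Lhfpl3 differed by -0.43 ± 0.16, and none of the 3 passed. Choroid plexus genes, which line the ventricle, had medians of -0.11 and -0.38 over 5 genes and a median difference of -0.21, or -1.10 without KO SVZ a, with Clic6, Enpp2 and Kl at -0.91 ± 0.72, -1.15 ± 1.08 and 0.39 ± 0.53. Their summed level ran from 30.6 to 2130 FPKM within KO DG alone.

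**Figure D4:**
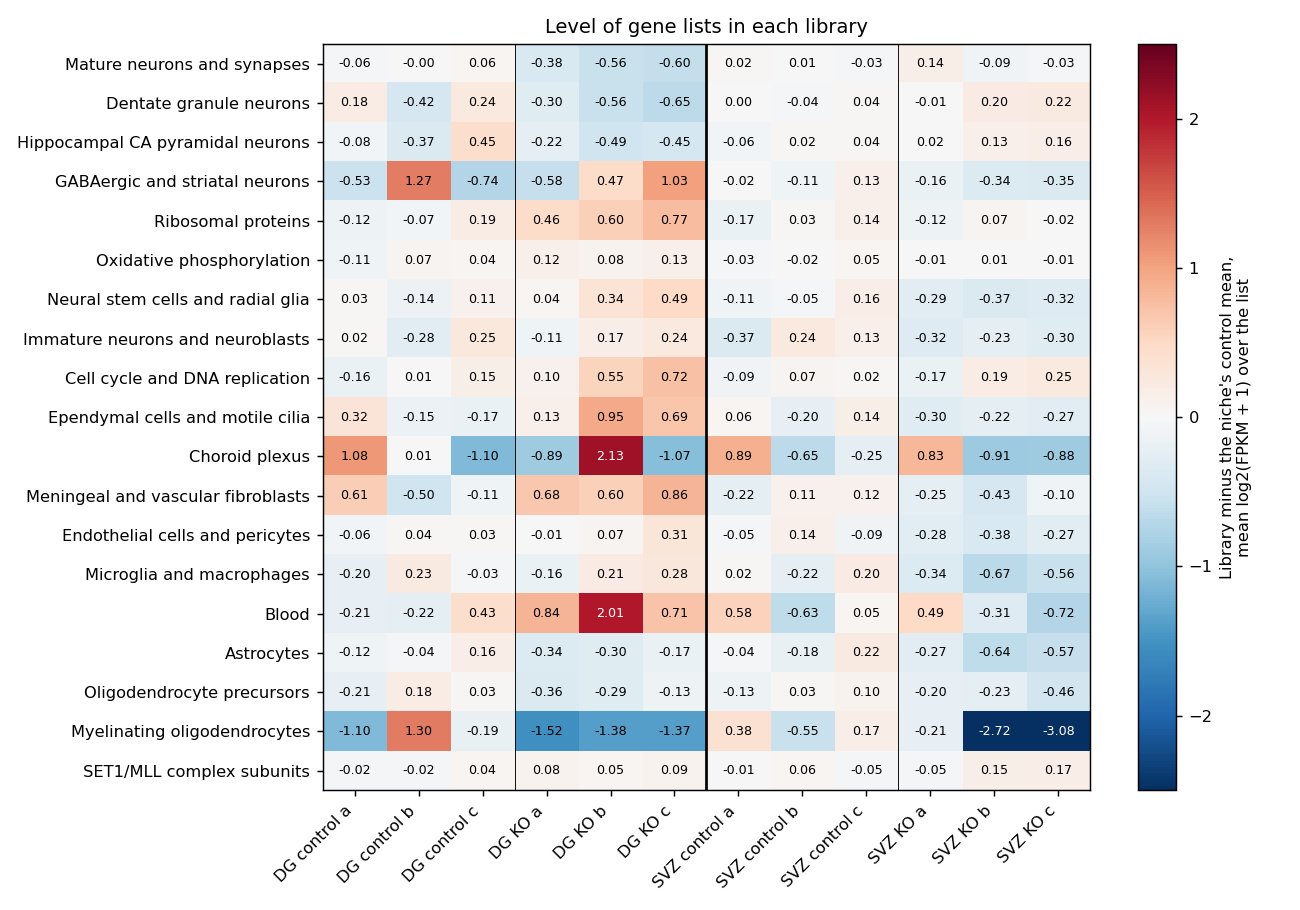
Mean log2(FPKM + 1) of each of 19 gene groups in each of the 12 libraries, minus the mean of the 3 control libraries of the same niche, as a colour scale (red higher, blue lower). KO SVZ a differs from KO SVZ b and c for myelinating oligodendrocytes, and DG control b, KO DG b and KO DG c stand out for GABAergic and striatal neurons.

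The plot of group means by library shows that the ribosomal rise held in all 3 KO DG libraries, while the mean log2(FPKM + 1) of the myelin genes minus that of SVZ control was -2.72 and -3.08 in KO SVZ b and c and -0.21 in KO SVZ a. For 20 subunits of SET1/MLL complexes the medians were 0.07 and 0.14 and the median difference -0.02, whose sign turned in 8 of 21 alternatives, and none was called with all 12 libraries. Without KO SVZ a the SVZ median was 0.21, and 3 rose and 1 fell in the SVZ, against 5.24% and 3.8% of all genes. In the DG 1 fell, against 2.64%. Dpy30, the deleted gene, is itself such a subunit and fell in both niches in that fit. Its SVZ fall is no test, since KO SVZ a was set aside for its Dpy30 level. Setd1a, a catalytic subunit, was 8.58 to 8.95 FPKM in DG control and 8.07 to 8.66 in KO DG, and 7.53, 8.24 and 8.45 FPKM in SVZ control and 8.58, 11.7 and 11.05 FPKM in KO SVZ. Its relative Setd1b was 2.69, 3.27 and 3.50 FPKM in SVZ control and 3.80, 5.13 and 5.08 FPKM in KO SVZ. Both rose in the SVZ without KO SVZ a, by 1.41-fold and 1.62-fold, and their differences then were 0.51 ± 0.11 and 0.47 ± 0.14 (limma adjusted p = 0.0706 and 0.128). Ash2l, the subunit that Dpy30 binds, differed by -0.22 ± 0.14. Of the 5 H3K4 demethylases, Kdm5a, Kdm1b and Kdm5b differed by -0.44 ± 0.16, -0.39 ± 0.16 and -0.10 ± 0.13, and none passed.

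Among signalling genes of the Hedgehog, Notch, BMP and Wnt pathways, 32 of 36 differences were negative, with medians of 0.15 in the DG and -0.11 in the SVZ. Beside Chrd, Sfrp1, a secreted Wnt antagonist, was 2.44 to 3.17 FPKM in SVZ control and 1.07 to 1.76 in KO SVZ and differed by -0.96 ± 0.28, and Bmp6, a BMP ligand, by -1.20 ± 0.35. Without the 3 libraries of high Drd2 the DG median was -0.02. Cholesterol synthesis genes had medians of 0.04 and -0.22 over 20 genes. Fdps, of the isoprenoid step, rose 1.42-fold in KO DG and differed by -0.45 ± 0.15. Hmgcs1, of the mevalonate step, fell 1.53-fold in KO SVZ b and c and differed by -0.61 ± 0.21, and Mvd by -0.38 ± 0.13. Without KO SVZ a 8 of the 20 fell in the SVZ, against 3.8% of all genes. The difference was called for 0, with 12 genes at an unadjusted p under 0.05 in that fit and 7 with all 12 libraries. Over all 14913 genes those numbers were 2749 and 2380.

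Stress-related groups were mixed. Mt2, a metallothionein, was 66.1, 65.7 and 64.9 FPKM in SVZ control and 37.6, 20.4 and 23.4 FPKM in KO SVZ, and 16.1 to 23.7 in DG control and 12.0 to 18.5 in KO DG. The SVZ groups lay wide apart and the DG groups overlapped, with a difference of -0.98 ± 0.30 (limma adjusted p = 0.167). Mt1 differed by -0.50 ± 0.18, and Hspa1b, an inducible chaperone, by 1.24 ± 0.47. Over the 13 heat shock and stress genes the medians were -0.13 and -0.10. For 7 interferon-response genes they were 0.24 and 0.11, and the median difference was 0.04, with 4 of 7 positive. The 3 members of smallest p had the other sign, with Ifitm3, Irf9 and Ifit3 at -0.69 ± 0.24, -0.23 ± 0.17 and -0.31 ± 0.29. For 13 p53 targets and cell cycle inhibitors the medians were 0.10 and -0.06. Beside Cdkn1a, Trp53inp1, Cdkn2c and Gadd45a differed by -0.41 ± 0.16, -0.42 ± 0.25 and 0.44 ± 0.27.

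The authors' deposited lists of genes changed at least 2-fold in both niches were described last. They were chosen on these samples, so their direction is no independent evidence. The values below are sums per gene on the log2(FPKM + 1) scale, so their size cannot be set against the 2-fold limit. Of 82 tested genes of the lower list, 72 had negative effects in both niches, with medians of -0.53 and -0.51 and a median difference of -0.05. In both niches 15 were separated lower, against 0.624% of all genes. Without KO SVZ a 44 were, against 500 of all 14913 genes. Of 51 tested genes of the higher list, 42 had positive effects in both, with medians of 0.42 and 0.37 and a median difference of -0.03. In both niches 9 were separated higher, against 1.77% of all genes. Without KO SVZ a 30 were, against 1652 of all 14913 genes. The sign of these median differences turned in 4 and 6 of 21 alternatives. The difference of effects was called for 0 genes of either list. An unadjusted p under 0.05 was reached by 4 genes of the lower and 4 of the higher list, against 2380 of all 14913. With KO SVZ a left out, the SVZ medians were -0.69 and 0.52 and the median differences -0.22 and 0.10. The difference was again called for 0, with 16 and 9 genes at an unadjusted p under 0.05, against 2749 of all 14913.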

How the data were processed

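Total RNA of 12 libraries was poly(A)-selected in 2 rounds before library preparation, per the labels' protocols. The authors deposited a transcript FPKM table per niche, TopHat-aligned and TMM-scaled per the file names; CASAVA 1.8.4, TopHat2 2.1.0, Partek and GRCm38 are named in the submitters' processing notes, without roles, and the use of strand is not given in the sources. The tables were normalized separately, so levels were not tested between them. Rows carried gene names and were paired with transcripts of the same name through the authors' deposited group mean FPKM (relative tolerance 0.0001). The 40483 rows per table were summed to 17972 gene names, 17930 of which had a position in GENCODE M21, also GRCm38. Names in 87 rows per table were dates (restored through the pairing), 56 and 64 rows matched more than 1 transcript, and 18 names had 2 gene IDs.

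log2(FPKM + 1) was fitted with limma 3.58.1 (R 4.3.3) as 4 group means with a trended prior, with Benjamini-Hochberg adjustment over all 14913 genes, called at 0.05; this scale understates changes of low genes. Depth was read from the steps of low FPKM values. The procedure was tested on simulated data. Genes were named by rank of p for the difference, by the smaller effect among genes separated in both niches, by the difference among genes of a single niche (effect under 0.2 in the other), all at 2 FPKM or more, and by the 3 smallest p in each of 28 lists at any level tested; 6 genes so named are not reported here. Members, lists and rules were chosen with earlier results of these data known. Alternatives covered the pseudocount, filter, scaling, weights, moderation, sex, separate fits and each library left out; leaving out 3 DG libraries was added after seeing the data.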

Additional observations from a re-analysis of the deposited data

Results flagged for a closer look

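The KO effect differed between the niches, by limma's test of the difference itself, for 5 genes with all 12 libraries, of which 4 are given here. The differences (SVZ effect minus DG effect, log2) were 1.01 for Eno2, 1.11 for Dagla, 3.24 for n-R5s141 and -0.85 for Abca9. Eno2 rested on a fall in KO DG, n-R5s141 on a rise in KO SVZ, and Dagla and Abca9 on effects of opposite sign.

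Without KO SVZ a, 23 more of the genes named here passed that test. The positive differences were 1.72 for Srxn1, 1.86 for Ifitm10, 1.46 for Prss23, 1.57 for Rtn4rl1, 1.42 for Cdkn1a, 1.03 for Sccpdh, 1.41 for Slc7a4, 1.38 for Creg2, 0.98 for Mchr1 and 0.74 for Grina. The negative ones were -1.33 for Cxcl12, -0.90 for Rpl7, -1.01 for Gm13370, -1.12 for Gng11, -0.91 for Prdx4, -1.33 for Rnase4, -1.51 for Rpl26, -0.99 for Hn1l, -1.19 for Mrc1, -0.81 for Sptssa, -1.08 for Stmn1, -1.58 for Fcrls and -0.91 for Rpl34-ps1. Gm13370 and Rpl34-ps1 are processed pseudogenes, whose own levels are uncertain.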

How the results depend on the processing

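No paired analysis was possible because the table columns carry no replicate numbers. The 5 called differences became 2 with log2(FPKM + 0.1), 13 with a minimum of 2 FPKM, 9 with median centring, 14 with sex as a term, 2131 with array weights, 0 without the 3 DG libraries of high Drd2, and 0 to 258 with each library left out. The 64 without KO SVZ a became 152 with no filter, 25 with a minimum of 2 FPKM, 113 with sex, 2049 with array weights, 4 without those 3 libraries and 0 to 506 with each library left out; quantile normalization gave 62 positive and 25 negative. The 281 DG calls became 4761 with array weights, 3 without those libraries, 102 within the DG table alone, where 48 rose and 54 fell, and 4 to 1237 with each library left out. The 1 SVZ call became 2 with log2(FPKM + 0.1), with a minimum of 2 FPKM or with robust moderation, 2704 with array weights, and 0 to 1349 with each library left out; the 1349 without KO SVZ a became 2936 with array weights and 60 to 1483. Array weights gave KO DG b a weight of 10.5 and the others 0.243 to 3.91. Genes separated in both niches numbered 1090 (same direction) and 588 (opposite) without the 3 DG libraries, which leaves fewer libraries to separate, and 388 to 2152 and 326 to 682 with each library left out.

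The Dpy30 difference turned to -0.24 with array weights and ranged from -0.21 to 0.16 with each library left out; its effect was -0.41 in the DG and -0.66 in the SVZ with array weights, both past the threshold, and -0.52 to -0.38 and -0.67 to -0.29 with each library left out. Over the named genes, 2606 single-gene values kept direction and call, 153 gained and 143 lost the call, and 64 changed sign; none of those differences was called with all 12 libraries. With array weights the reversed values were 0.16 for Cisd3, 0.011 for Akr7a5, 0.033 for Snhg3, -0.66 for Mag, -0.029 for Gpr17, -0.38 for Sema4d, 0.49 for Igfbpl1, -0.19 for Kl and 0.012 for Irf9. Without the 3 DG libraries they were -0.20 for Angptl6, 0.011 for Akr7a5, -0.032 for Mag, -0.51 for Sema4d, -0.059 for Gadd45g, 0.67 for Igfbpl1 and 0.039 for Clic6. With sex they were -0.064 for Ubxn11, 0.11 for Lix1 and 0.038 for Igfbpl1. With median centring Akr7a5 was 0.0071 and Lix1 0.015, and with quantile normalization Lix1 0.027 and Igfbpl1 0.0029. With each library left out, differences ranged from -0.27 to 0.067 for Cisd3, -0.23 to 0.093 for Snhg3, -0.59 to 0.078 for Plxnb3, -0.86 to 0.36 for Igfbpl1, -0.16 to 0.38 for Ubxn11, -0.17 to 0.12 for Akr7a5, -0.29 to 0.074 for Pbx4, -0.37 to 1.29 for Mag, -0.39 to 0.39 for Sema4d, -0.36 to 0.19 for Lix1, -0.048 to 0.30 for Angptl6, -0.0044 to 0.34 for Gadd45g, -0.19 to 0.77 for Gpr17 and -0.54 to 0.12 for S100a13. Median differences turned sign in 4 of 21 alternatives for oligodendrocyte precursors, 5 for choroid plexus, 5 for heat shock, 6 for interferon response and 6 for intermediate progenitors. The cause of these changes was not tested. With 3 libraries a group, or 2, a difference under several times its standard error was not detectable.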
